A study of Homo sapiens with 6 samples.

Results

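The genes described here are 10 genes of the BCR-ABL signaling pathway: the fusion partners BCR and ABL1, the adaptors CRKL and GAB2, the transcription factors STAT5A and STAT5B, the STAT5 targets PIM1, CISH and SOCS2, and MYC. They were chosen by name out of 62252 genes that have a transcript in the deposited tables, and 105 of the 251612 matched transcripts belong to them. All 10 passed the count filter and were tested. K562 is a human leukemia line with erythroid features whose growth is driven by BCR::ABL1. The 6 libraries are poly-A RNA from K562 cells that carried a lentiviral pLKO.1 hairpin, with 3 libraries for a hairpin against PCBP1 (shPCBP1) and 3 for a hairpin against luciferase (shCtrl). Cells of both groups were exposed to polybrene at 8 µg/ml and then selected in puromycin at 3 µg/ml for 4 days, so both differ from untreated K562 cells in the virus and the selection. The shPCBP1 group rests on 1 hairpin against its target, and effects of that hairpin on other transcripts cannot be told apart from effects of losing PCBP1.

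In K562 cells a translocation joins the first part of BCR, on chromosome 22, to most of ABL1, on chromosome 9, and the BCR::ABL1 protein is a tyrosine kinase that is always active. CRKL is a major substrate that docks on the kinase, GAB2 links it to the RAS-MAPK and PI3K-AKT arms, and STAT5 proteins phosphorylated downstream enter the nucleus and switch on genes such as PIM1, CISH and SOCS2. CISH and SOCS2 feed back on cytokine signaling, PIM1 is a serine/threonine kinase that favours survival, and MYC is a transcription factor that drives growth and ribosome production in these cells. RNA levels do not report the activity of the kinase or the phosphorylation of its substrates.

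The sequence at the fusion is shown because it decides what the BCR and ABL1 values measure. K562 cells carry the join of BCR exon 14 to ABL1 exon 2. The lines below give the last 40 bases of exon 14 of BCR-201 (chr22:23290374-23290413, plus strand) and the first 40 bases of exon 2 of ABL1-201 (chr9:130854064-130854103, plus strand), both read 5′ to 3′ from GRCh38, with the 12 bases next to the join in capitals.
BCR-201 exon 14 end: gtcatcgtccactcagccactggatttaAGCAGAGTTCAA
ABL1-201 exon 2 start: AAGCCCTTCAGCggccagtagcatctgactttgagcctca
GENCODE 44 holds no transcript that runs across this join, so reads from the fusion RNA are credited to BCR or to ABL1, and each value below sums the fusion with the unrearranged gene.

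STAT5 binds paired TTC and GAA half-sites, and the CISH promoter is shown because it carries a cluster of them. The stretch below is chr3:50611866-50612024 (GRCh38.p14, minus strand, 159 bases, from RefSeq), with each match to TTCNNNGAA in capitals.
CISH promoter: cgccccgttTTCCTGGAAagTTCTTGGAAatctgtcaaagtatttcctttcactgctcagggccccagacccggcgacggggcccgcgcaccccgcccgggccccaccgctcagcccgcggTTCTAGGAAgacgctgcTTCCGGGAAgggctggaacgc
The 4 matches begin 241, 230, 129 and 112 bases before the start of transcription and read TTCCTGGAA, TTCTTGGAA, TTCTAGGAA and TTCCGGGAA. The motif reads the same on both strands, and it was searched in windows from 250 bases before to 50 bases after each start. Of 35116 such windows, 2689 (7.66%) held at least 1 match and 7 (0.0199%) held 4 or more. The search covered 8 of the genes described here, in 11 windows, and CISH was the 1 gene of these with a match. No promoter sequence was at hand for SOCS2, and MYC was left out of the search.

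PCBP1 RNA was checked first. Normalized counts of PCBP1 were 40566, 38409 and 37799 in shCtrl replicates 1 to 3 and 6625, 7277 and 7221 in shPCBP1 replicates 1 to 3, or 18.1% of the control level (log2 fold change -2.47, SE 0.044). Every shPCBP1 library therefore lay below every shCtrl library, as the labels state. Libraries held between 67066747 and 140522444 estimated counts, and those of shPCBP1 (67066747 to 85121124) were mostly shallower than those of shCtrl (83033656 to 140522444). Mitochondrial transcripts took 6.50% to 6.57% of the counts in shCtrl and 6.18% to 6.28% in shPCBP1, and the part of this gap in the results below was not tested. The erythroid factor GATA1 was at 214.9, 215.5 and 217.4 TPM in shCtrl and 204.2, 206.2 and 202.6 TPM in shPCBP1. Every shPCBP1 library thus lay below every control for GATA1, though DESeq2 did not call it. CDKN2A and CDKN2B, genes that K562 lacks, held between 0 and 1 count. Of 10 erythroid markers, 4 were higher in shPCBP1 and 0 lower by DESeq2, beside 28.7% higher among all genes of at least 1000 normalized counts (at an unadjusted p under 0.05, 5 were higher and 1 lower, and edgeR called 5 higher and 0 lower). The 4 were the transferrin receptor TFRC (log2 fold change 0.35), LMO2 (0.28), TAL1 (0.19) and HBG1 (0.16), a globin that shares reads with HBG2. The summed level of all 10 ran from 29074 to 34895 TPM in shCtrl and from 33281 to 34715 TPM in shPCBP1. Of 9 markers of other blood cells, the summed level ran from 84.9 to 93.5 TPM in shCtrl and from 90.1 to 94.0 TPM in shPCBP1, almost all of it from LYZ and PTPRC, while the T cell marker CD3E and the B cell marker MS4A1 stayed under 0.3 TPM in every library.

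RNA of the fusion partners and the adaptors rose in shPCBP1, STAT5A and STAT5B did not pass the test, and MYC rose by 9.06%. In bulk RNA, a change in the number of cells of a kind and a change of RNA per cell cannot be told apart. Of the 10 genes, 6 were higher at an adjusted p under 0.05 (BCR, ABL1, CRKL, GAB2, SOCS2 and MYC) and 0 were lower, by the Wald test of DESeq2 with Benjamini-Hochberg adjustment over all 17095 genes that received an adjusted p. In the same test 17.7% of all genes were higher and 13.5% were lower. Among the 9369 genes with a mean of at least 1000 normalized counts, a level that all 10 genes exceed, 28.7% were higher. At an unadjusted p under 0.05, 7 of the 10 were higher and 0 were lower, and the quasi-likelihood test of edgeR called 6 higher and 0 lower after adjustment. The rises were small. None of the 10 reached an absolute log2 fold change of 1, which 1.37% of all genes passed together with the test and a mean over 10. The median log2 fold change was 0.14 over the 10 genes and 0.0019 over all genes tested.

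**Figure D1:**
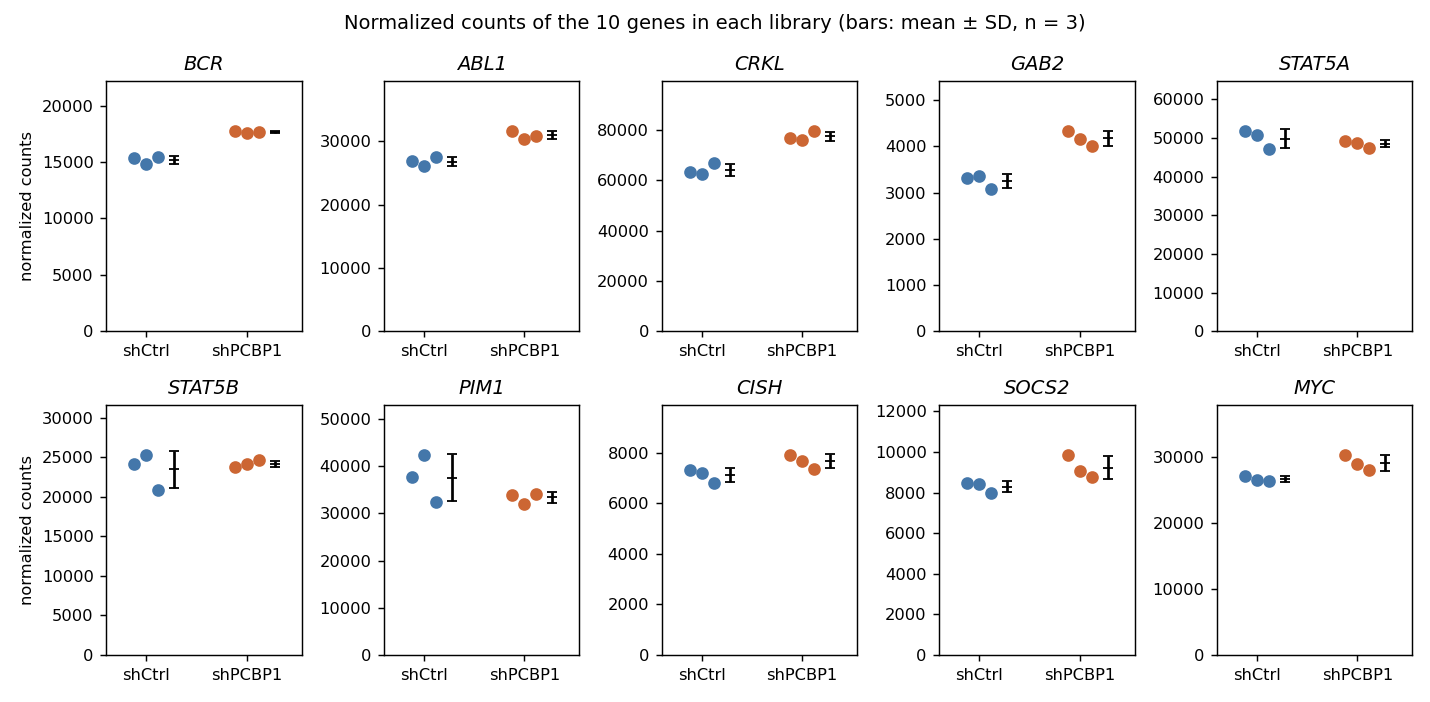
Normalized counts (counts divided by the size factor of each library) of the 10 genes in the 3 shCtrl and 3 shPCBP1 libraries, each panel with its own axis from 0; black marks are the mean ± SD, n = 3. The groups stand clear of each other for BCR, ABL1, CRKL and GAB2, lie close for CISH, SOCS2 and MYC, and overlap for STAT5A, STAT5B and PIM1, where shCtrl replicate 3 is the lowest control.

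BCR, whose first exons supply the part of the fusion that brings kinase molecules together, stood at 15373, 14820 and 15457 normalized counts in shCtrl against 17746, 17577 and 17633 in shPCBP1. The 3 shPCBP1 libraries lay within a narrow band above all controls. The rise was 16.0% (95% interval 10.5% to 21.7%; log2 fold change 0.21, SE 0.035, DESeq2 adjusted p = 3.36e-08). ABL1, which supplies the kinase domain, had 26856, 26037 and 27459 normalized counts in shCtrl and 31615, 30366 and 30778 in shPCBP1. Its groups were also separate. ABL1 rose by 15.4% (10.1% to 21.0%, log2 fold change 0.21, SE 0.035, DESeq2 adjusted p = 5.95e-08), so the point estimates of the partners were alike. Both values take in reads of the fusion RNA, so they are not independent measurements. BCR spans chr22:23179704-23318037 and ABL1 spans chr9:130713043-130887675 on GRCh38, both on the plus strand. BCR has pseudogene copies on chromosome 22, and the counts of BCR are uncertain to the extent that reads are shared with them.

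Genes that lie within 500 kb of the fusion partners on the reference genome were described for comparison, because chromosome segments around both genes are rearranged in K562. Near BCR, 5 of 13 protein-coding genes could be tested. SMARCB1, a subunit of the SWI/SNF remodelling complex, was higher in shPCBP1 (log2 fold change 0.24, DESeq2 adjusted p = 0.000272) and CHCHD10, a mitochondrial protein, was lower (-0.33, adjusted p = 1.88e-11). Near ABL1, 10 of 15 could be tested. The nucleoporin NUP214 was expressed at 160.3 ± 11.1 TPM (SD, n = 3) in shCtrl, above ABL1 itself at 56.3 ± 0.50 TPM, and was higher in shPCBP1 (log2 fold change 0.19, SE 0.038, adjusted p = 3.30e-06). FUBP3, which binds single-stranded nucleic acid and lies upstream of EXOSC2 and ABL1, was higher by 0.15 (SE 0.041, adjusted p = 0.00158). NCS1 (-0.36, adjusted p = 3.49e-09) and AIF1L (-0.36, adjusted p = 0.00589) were lower, and EXOSC2, a subunit of the RNA exosome, had a log2 fold change of 0.03 (adjusted p = 0.632). The neighbours of each partner therefore moved in both directions. The adjusted p of NUP214 was 0.378 and that of FUBP3 was 0.498 once transcript length offsets were used, and that of AIF1L was 0.0612 without shPCBP1 replicate 1.

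CRKL, the adaptor that is the best-known substrate of the fusion kinase, was the most abundant of the 10 genes by count. Its normalized counts were 63266, 62321 and 66752 in shCtrl and 76651, 76062 and 79539 in shPCBP1. The lowest shPCBP1 library exceeded the highest control, and CRKL rose by 20.7% (15.1% to 26.7%; log2 fold change 0.27, SE 0.035, DESeq2 adjusted p = 6.64e-13). CRKL (chr22:20917407-20953747, plus strand) lies on the same chromosome as BCR. GAB2, a scaffold that recruits PI3K and the phosphatase SHP2, had 3312, 3356 and 3083 normalized counts in shCtrl and 4330, 4169 and 4012 in shPCBP1. Its groups were separate, and the rise of 28.4% (18.6% to 39.1%; log2 fold change 0.36, SE 0.059, DESeq2 adjusted p = 1.87e-08) had the highest point estimate of the 10. GAB2 was at the same time the gene with the lowest level of the 10, at 7.46 ± 0.64 TPM in shCtrl and 9.15 ± 0.66 TPM in shPCBP1 (SD, n = 3).

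STAT5A and STAT5B are near-identical transcription factors that carry the signal to the nucleus. STAT5A stood at 51810, 50735 and 47076 normalized counts in shCtrl and 49275, 48742 and 47510 in shPCBP1. All shPCBP1 libraries fell inside the range of the controls, and the difference was -2.73% (-7.73% to 2.54%; log2 fold change -0.04, SE 0.039, DESeq2 adjusted p = 0.485). STAT5B had 24212, 25337 and 20870 normalized counts in shCtrl and 23758, 24122 and 24622 in shPCBP1. Its groups overlapped too, with shCtrl replicate 3 below the rest, and the difference was 2.98% (-4.40% to 10.9%; log2 fold change 0.04, SE 0.055, DESeq2 adjusted p = 0.619). Without shCtrl replicate 3 the log2 fold change of STAT5B was -0.034. The intervals leave room for a change of several percent in either gene. The ends of STAT5A and STAT5B overlap on opposite strands of chromosome 17 and their coding sequences are alike, so the division of reads between them is uncertain.

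**Figure D2:**
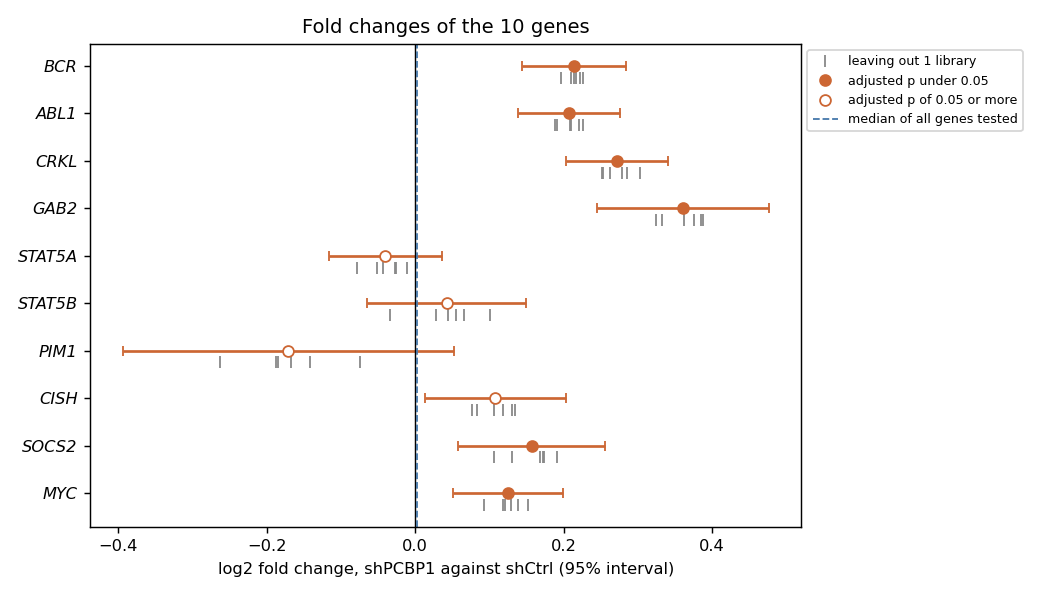
Log2 fold change of each gene, shPCBP1 against shCtrl, from DESeq2 with its 95% interval (horizontal lines); filled points have an adjusted p under 0.05, grey ticks are the estimates with 1 library left out, and the dashed line is the median of all genes tested (0.0019). BCR, ABL1, CRKL and GAB2 lie between 0.21 and 0.36 with ticks close by, while the estimates of PIM1 spread from -0.26 to -0.074 and those of STAT5B fall on both sides of 0.

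Of the 3 STAT5 targets, SOCS2 passed the test. SOCS2, an adaptor of ubiquitin ligases that dampens cytokine signaling, had 8468, 8409 and 7971 normalized counts in shCtrl and 9862, 9043 and 8785 in shPCBP1. The groups did not overlap, with shPCBP1 replicate 1 farthest out, and SOCS2 rose by 11.5% (4.08% to 19.4%; log2 fold change 0.16, SE 0.051, DESeq2 adjusted p = 0.00874). The call was lost without shCtrl replicate 3 (log2 fold change 0.13, adjusted p = 0.0636) and without shPCBP1 replicate 1 (0.11, adjusted p = 0.0931). CISH, a member of the same family, had 7327, 7220 and 6801 normalized counts in shCtrl and 7928, 7691 and 7374 in shPCBP1. The groups just cleared each other, but the difference of 7.76% (0.899% to 15.1%; log2 fold change 0.11, SE 0.048) did not pass, with a DESeq2 adjusted p of 0.0757. Without shPCBP1 replicate 3 it did (0.13, adjusted p = 0.0380). CISH shares its locus with MAPKAPK3 on the opposite strand, which had a log2 fold change of 0.15 (DESeq2 adjusted p = 0.0129). Whether the counting used strand is not given in the sources used here, so reads of the overlap cannot be told apart. SOCS2 likewise overlaps SOCS2-AS1, which had a log2 fold change of 0.14 (adjusted p = 0.548) at a mean of 511.8 normalized counts.

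PIM1, the kinase that STAT5 induces, was the most variable of the 10 genes among controls, with 37764, 42423 and 32513 normalized counts in shCtrl and 34001, 32010 and 34088 in shPCBP1. The shCtrl libraries spanned 9910 counts and enclosed 2 of the 3 shPCBP1 libraries. The difference was -11.2% (-23.9% to 3.66%; log2 fold change -0.17, SE 0.114, DESeq2 adjusted p = 0.269). Without shCtrl replicate 3 the log2 fold change was -0.26 and the adjusted p was 3.98e-06, so the call for PIM1 depended on that library. SOCS2 with CISH on one side and PIM1 on the other thus had point estimates of opposite sign, and the difference between them was not tested.

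MYC (chr8:127735434-127742951, plus strand) had 27112, 26481 and 26367 normalized counts in shCtrl and 30328, 28909 and 27959 in shPCBP1. All shPCBP1 libraries lay above all controls, the lowest by a narrow margin. MYC rose by 9.06% (3.65% to 14.8%; log2 fold change 0.13, SE 0.037, DESeq2 adjusted p = 0.00432), and with any 1 library left out the log2 fold change stayed between 0.093 and 0.15 with an adjusted p of at most 0.0375. Over all 10 genes, 7 had groups that did not overlap with shPCBP1 higher, and 0 had them lower. Among all 17095 genes tested, 4051 (23.7%) had such groups with shPCBP1 higher and 3501 had them with shPCBP1 lower. These shares were not taken for abundant genes alone.

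TPM values, which are scaled for transcript length, allow levels to be ordered between genes. In shCtrl the order was PIM1 at 218.4 ± 30.5 TPM, STAT5A at 184.6 ± 12.3, MYC at 160.5 ± 4.33, CRKL at 150.3 ± 3.55, SOCS2 at 65.6 ± 0.33, STAT5B at 59.3 ± 7.62, ABL1 at 56.3 ± 0.50, BCR at 43.5 ± 1.40, CISH at 41.0 ± 2.01 and GAB2 at 7.46 ± 0.64 (SD, n = 3). The ranges of PIM1 and STAT5A overlapped, as did those of SOCS2 with STAT5B and of STAT5B with ABL1. In shPCBP1 the upper 4 were PIM1 at 189.6 ± 9.17 TPM, CRKL at 178.6 ± 6.46, MYC at 175.2 ± 1.19 and STAT5A at 174.6 ± 0.37, and each overlapped the next. CRKL thus stood at rank 4 in shCtrl, where its range overlapped neither that of MYC nor that of SOCS2. In shPCBP1 CRKL stood at rank 2, within a set of neighbours that overlap. The partners kept their order, with ABL1 at 63.9 ± 0.25 TPM above BCR at 49.2 ± 2.02 TPM in shPCBP1, and no ratio between them can be read as fused against unfused RNA.

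The genes whose normalized counts followed MYC most closely over the 6 libraries, by Pearson's r among 11623 genes, were TPX2, MOB3B, ZSCAN32, ELAVL1 and ZMYND19. Their r lay between 0.994 and 0.997, and 1201 genes had an r over 0.9. The points share their libraries and the contrast between the groups, so these values are a description.

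At the level of single transcripts, 64 of the 105 transcripts averaged at least 0.5 TPM and were tested with limma on log2(TPM + 0.5), a scale that understates the change of low transcripts. Of these, 2 were higher and 0 were lower at an adjusted p under 0.05, against 1.39% higher and 1.47% lower among all 61505 transcripts tested. At an unadjusted p under 0.05, 7 were higher and 3 lower. DESeq2 on the transcript counts, which had no TPM filter and tested 83 of the 105, called 9 higher and 1 lower, against 4.98% higher and 4.29% lower among its 105847 transcripts. CRKL-201, the transcript that carries nearly all CRKL, was at 147.1, 149.4 and 153.9 TPM in shCtrl and 172.9, 176.3 and 185.2 TPM in shPCBP1. The groups were separate, with a log2 fold change of 0.25 (SE 0.036, limma adjusted p = 0.0279). The adjusted p was between 0.0582 and 0.0989 whenever 1 library was left out. SOCS2-209 had a listed TPM of 0 in each shCtrl library, with 1.58, 2.75 and 0.91 TPM in shPCBP1 (limma adjusted p = 0.0380). A value of exactly 0 can be a failed estimate among overlapping isoforms, so no fold change is given, and the call was lost in 4 of the 5 fits that leave out 1 library and could test it.

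The main transcripts of the fusion partners had higher point estimates in shPCBP1 but did not pass in limma. BCR-202 was at 31.4, 32.0 and 31.2 TPM in shCtrl and 36.2, 36.7 and 36.1 TPM in shPCBP1. ABL1-201 was at 46.5, 46.6 and 47.9 TPM in shCtrl and 53.7, 52.7 and 51.8 TPM in shPCBP1. Both sets of libraries were separate, with log2 fold changes of 0.20 (limma adjusted p = 0.0595) and 0.16 (limma adjusted p = 0.0799), and DESeq2 on transcript counts called both (adjusted p = 1.95e-30 for BCR-202 and 0.000199 for ABL1-201). BCR-202 also passed in limma when only transcripts of at least 1 TPM were tested (adjusted p = 0.0433). GAB2-202 was at 6.48, 6.77 and 6.0 TPM in shCtrl and 8.24, 8.11 and 7.91 TPM in shPCBP1. It had a log2 fold change of 0.31 (limma adjusted p = 0.111; DESeq2 adjusted p = 1.02e-10). STAT5A-214, a minor form of a gene whose total did not pass the test, was at 4.06, 5.08 and 3.92 TPM in shCtrl and 6.17, 10.0 and 7.86 TPM in shPCBP1 (limma adjusted p = 0.0896; DESeq2 adjusted p = 5.38e-05). The transcripts called by DESeq2 thus included forms of BCR, ABL1, CRKL and GAB2, and also minor forms of STAT5A, STAT5B and SOCS2.

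Isoform shares, the percent of a gene's TPM held by each transcript, were compared for 28 isoforms of 9 genes that held at least 5% on average. MYC-202 took 62.4% of MYC TPM in shCtrl and 58.3% in shPCBP1, a difference of -4.07 percentage points, and it was the 1 isoform of the 28 whose groups did not overlap. Among 27794 isoforms chosen alike in all genes with a mean of at least 1000 normalized counts, 23.8% did not overlap. With 3 against 3 libraries the exact permutation test, two-sided, cannot give a p below 0.1, and that was the p of MYC-202. MYC-205 took 28.5% of MYC TPM in shPCBP1, 1.78 points more than in shCtrl (exact permutation p = 0.4). BCR-202 held 73.9% of BCR TPM in shPCBP1, 1.35 points more than in shCtrl (exact permutation p = 0.6), a difference that was -0.32 points without shCtrl replicate 3 and 2.72 points without shCtrl replicate 2. ABL1-201 held 82.5%, 0.95 points less (exact permutation p = 0.3; -1.59 to -0.40 points with 1 library left out). Minor forms of GAB2, STAT5A and STAT5B varied between libraries of 1 group. GAB2-206 averaged 8.53 ± 8.38% and STAT5A-208 averaged 9.04 ± 5.61% in shPCBP1 (SD, n = 3).

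**Figure D3:**
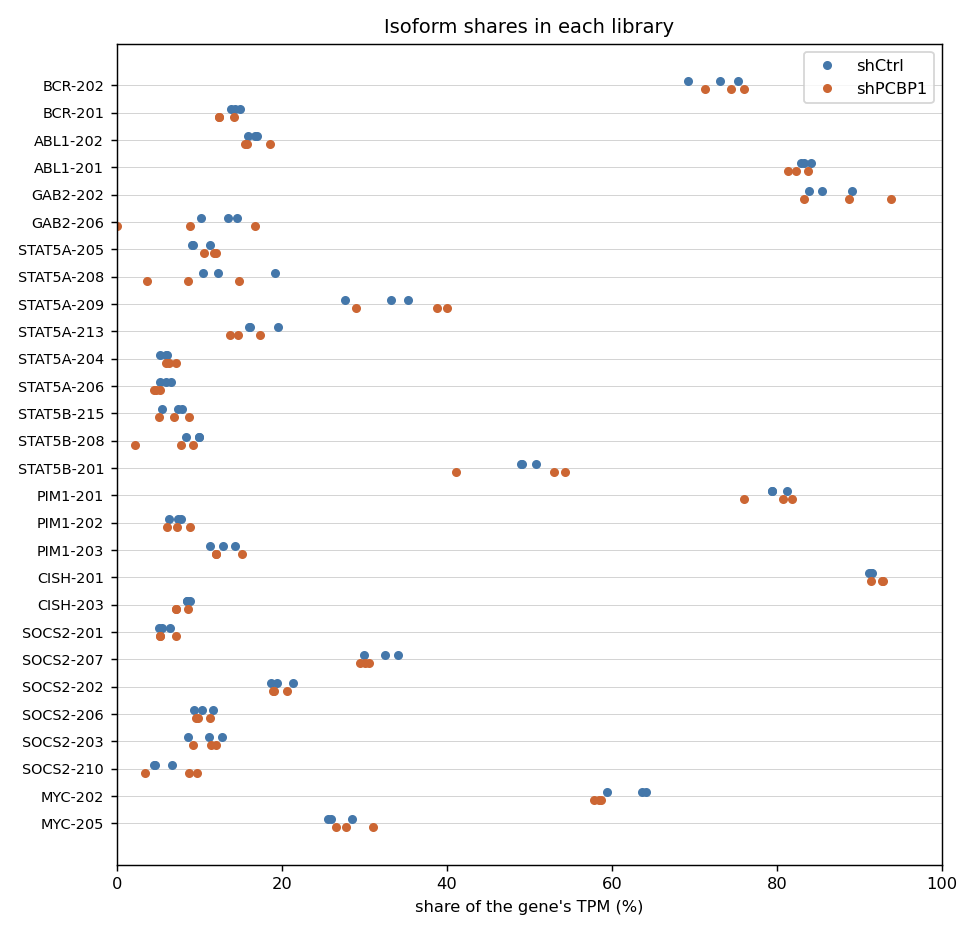
Share of the gene's TPM (percent, horizontal axis) held by each of 28 isoforms of 9 genes, with 1 point for each shCtrl and shPCBP1 library. MYC-202 is the 1 isoform whose groups do not overlap (62.4% in shCtrl and 58.3% in shPCBP1 on average); GAB2-206 and forms of STAT5A and STAT5B spread within groups.

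PCBP1 binds C-rich RNA, so the base composition of the main transcript of each gene is given as a description. C made up between 24.0% (SOCS2-207) and 31.8% (CISH-201) of the bases, against a median of 24.0% (quartiles 20.3% and 28.4%) over 17072 genes. BCR-202 (31.7%) and ABL1-201 (30.1%) lay above the upper quartile, and CRKL-201 (24.3%) lay near the median. Runs of CCCC occurred 12.3 times per kb in BCR-202, 11.8 times in ABL1-201 and 3.56 times in CRKL-201, against a median of 4.22 per kb. CISH-201 held the most of the 10, at 13.4 per kb, and CISH did not pass the test. The genes that rose covered most of the range of C content seen in the 10, from SOCS2-207 to BCR-202. A link between C content and the change was not tested.

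Other genes around the pathway were described from 8 hand-written lists that held 166 genes apart from the 10. Of 157 tested, 59 were higher and 22 were lower by DESeq2, with a median log2 fold change of 0.068 against 0.0019 over all genes. The lists were written with earlier results of these libraries known, and the counts are descriptions beside the background of 17.7% higher and 13.5% lower. Among genes with a mean of at least 1000 normalized counts, a level that many list genes exceed, 28.7% were higher.

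Signaling proteins next to the kinase held 28 tested genes, of which 10 were higher and 4 lower. CRK, the relative of CRKL, was at 5001, 4888 and 5456 normalized counts in shCtrl and 7070, 6942 and 7111 in shPCBP1. CRK rose by 0.46 on the log2 scale (SE 0.052, DESeq2 adjusted p = 6.78e-17), with separate groups. RIN1, an activator of ABL kinases, rose by 0.50 (adjusted p = 0.0191) at a mean of 248.0 counts. Phosphatases that oppose signaling were found on both sides of the test. INPP5D (SHIP1, -0.83, adjusted p = 3.34e-05) and PTPN6 (SHP1, -0.56, adjusted p = 0.00348) were lower at means of 402.6 and 325.1 normalized counts, PTPN1 was higher (0.26, adjusted p = 8.82e-10), and INPPL1 (SHIP2) had a log2 fold change of 0.07 (adjusted p = 0.162). PTPN11 (SHP2), the phosphatase that binds GAB2, rose by 0.23 (adjusted p = 8.27e-09) at a mean of 23284 counts, and LYN, a SRC family kinase, rose by 0.22 (adjusted p = 4.73e-05), whereas SRC was lower by -0.34 (adjusted p = 0.000184). Among other adaptors of this list, GRB2 (0.11, adjusted p = 0.00512) and DOK1 (0.29, adjusted p = 0.000105) were higher and SHC1 was lower (-0.20, adjusted p = 3.68e-05). GAB1 (-0.07, adjusted p = 0.560) and the exchange factor SOS1 (0.01, adjusted p = 0.911) did not pass. With transcript length offsets the adjusted p of PTPN6 was 0.146 and that of RIN1 was 0.618. RIN1 also lost its call without shCtrl replicate 2, shPCBP1 replicate 1 or shPCBP1 replicate 3 (adjusted p = 0.0511, 0.0517 and 0.0559).

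Among RAS-MAPK, PI3K-AKT and mTOR genes, 9 of 32 were higher and 5 lower by DESeq2, with a median log2 fold change of 0.019. By edgeR 7 were higher and 5 lower. The catalytic PI3K subunits of blood cells were lower, PIK3CD by -0.37 (DESeq2 adjusted p = 0.000187) and PIK3CG by -0.34 (adjusted p = 4.79e-06). FOXO3, the transcription factor that AKT keeps out of the nucleus, was higher by 0.34 (adjusted p = 3.69e-08), and RPTOR, a subunit of mTORC1, was higher by 0.28 (adjusted p = 9.84e-06). With transcript length offsets PIK3CG had an adjusted p of 0.196.

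Among receptors, JAK kinases and the other STAT genes, 12 of 17 could be tested, of which 2 were higher and 4 lower. STAT2, a transcription factor of interferon signaling, had 6109, 6337 and 5648 normalized counts in shCtrl and 3752, 4055 and 4415 in shPCBP1. The groups were far apart, and STAT2 fell by 0.57 on the log2 scale (SE 0.065, DESeq2 adjusted p = 1.19e-16). TYK2 (-0.41, adjusted p = 1.97e-19), STAT6 (-0.31, adjusted p = 8.83e-06) and the erythropoietin receptor EPOR (-0.26, adjusted p = 0.000910) were lower as well. JAK1 (0.15, adjusted p = 0.00246) and the shared receptor chain IL6ST (0.37, adjusted p = 5.15e-11) were higher. JAK2 had a log2 fold change of 0.07 (adjusted p = 0.337) and STAT3 of -0.07 (adjusted p = 0.119).

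Among further STAT5 targets and SOCS genes, 7 of 15 were higher and 2 lower. SOCS1, an inhibitor of JAK kinases, had 828.7, 747.7 and 764.2 normalized counts in shCtrl and 1491, 1471 and 1493 in shPCBP1. This was the highest fold of all the lists, with SOCS1 up by 0.93 on the log2 scale (SE 0.089, DESeq2 adjusted p = 2.95e-23) and the groups separate. PIM2 (0.30, adjusted p = 5.42e-09), SOCS4 (0.32, adjusted p = 3.32e-07) and SOCS6 (0.24, adjusted p = 0.0268) were also higher, while SOCS3 (-0.24, adjusted p = 0.000456) and the survival gene MCL1 (-0.17, adjusted p = 0.00107) were lower. BCL2L1, the survival gene most often tied to STAT5 in these cells, had a log2 fold change of 0.03 (adjusted p = 0.574). PIM2 thus passed the test where PIM1 did not, and the difference between them was not tested. The call of SOCS6 was lost with length offsets (adjusted p = 0.146) and without shCtrl replicate 1, shPCBP1 replicate 2 or shPCBP1 replicate 3 (adjusted p = 0.108, 0.0917 and 0.0920).

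Of 14 tested genes that respond to ERK, 6 were higher and 1 lower by DESeq2. With edgeR, which took in 16 genes of this list, 4 were higher and 1 lower. FOSL1, an AP-1 subunit, had 2913, 2241 and 2904 normalized counts in shCtrl and 4775, 4567 and 3942 in shPCBP1 (log2 fold change 0.72, SE 0.091, DESeq2 adjusted p = 1.13e-13). PHLDA1 rose by the same margin (0.72, adjusted p = 1.13e-24) and ETV5 by 0.33 (adjusted p = 1.34e-05). FOS, an AP-1 subunit induced at once by ERK, was lower (-0.44, adjusted p = 9.41e-05), and EGR1 had a log2 fold change of -0.05 (adjusted p = 0.773). Induced genes of the same pathway were therefore found on both sides. The adjusted p of ETV5 was 0.137 with length offsets.

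**Figure D4:**
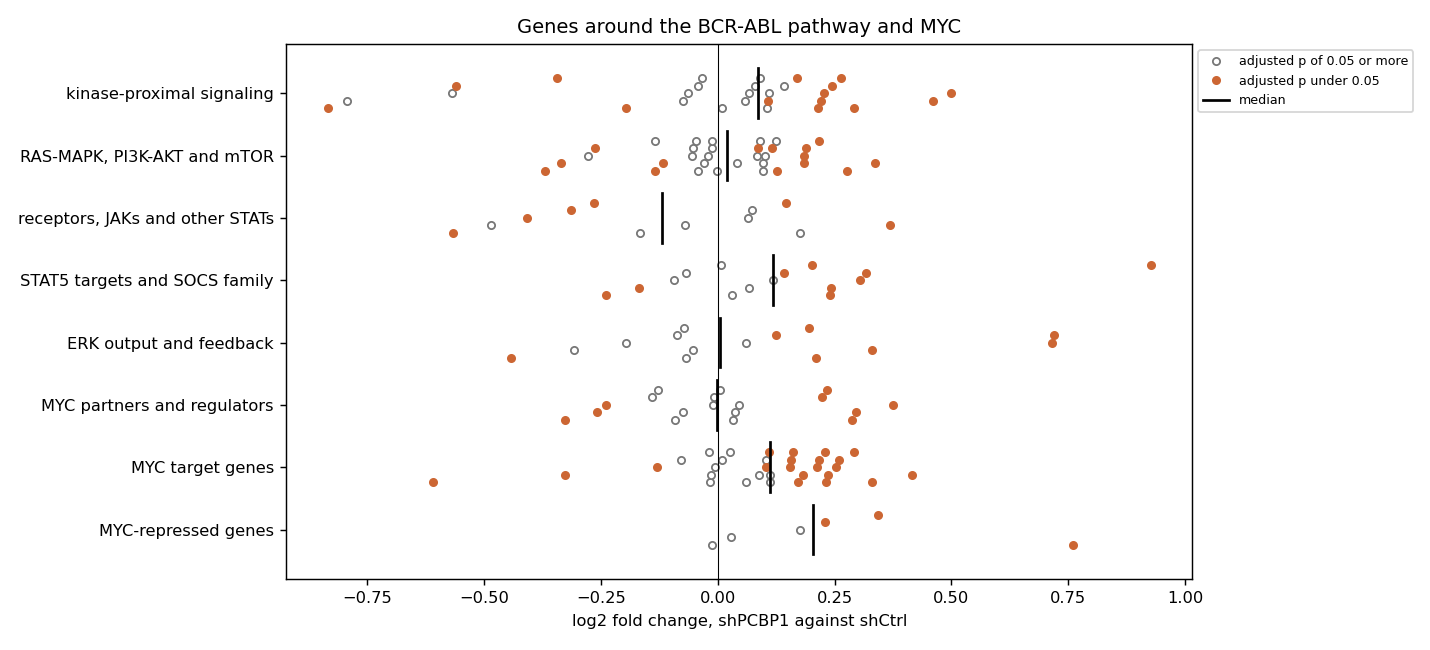
Log2 fold change, shPCBP1 against shCtrl, of every tested gene in the 8 lists around the pathway and MYC; orange points have a DESeq2 adjusted p under 0.05 and black bars are list medians (vertical scatter within a row has no meaning). Medians run from -0.12 for receptors, JAK and STAT genes to 0.20 for MYC-repressed genes, and every list but the last holds genes past the test in both directions.

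MYC works as a dimer with MAX, and 5 of 18 of its partners and regulators were higher and 3 lower. MAX was higher by 0.23 (DESeq2 adjusted p = 1.93e-05) and MGA, which competes for MAX, by 0.30 (adjusted p = 1.41e-08). MYCL was lower by -0.33 (adjusted p = 0.00912) and the long non-coding RNA PVT1, next to MYC, by -0.24 (adjusted p = 0.00140), the opposite direction to MYC. MYCBP2 was higher by 0.29 (adjusted p = 9.95e-09), but its log2 fold change was 0.0044 with length offsets. MYCL lost its call without shPCBP1 replicate 1 (-0.22, adjusted p = 0.0805) and without shCtrl replicate 1 (-0.30, adjusted p = 0.0731).

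Of 32 MYC target genes, 17 were higher and 3 lower by DESeq2, with a median log2 fold change of 0.11. By edgeR 12 of them were higher and 3 lower. Many genes of this list serve the nucleolus and ribosome assembly, and of these PPAN (0.42, DESeq2 adjusted p = 4.01e-10), NOP56 (0.33, adjusted p = 6.23e-09), RRP9 (0.29, adjusted p = 8.11e-05) and NCL (0.23, adjusted p = 4.60e-06) were higher. Others with such roles did not pass, among them FBL (-0.02, adjusted p = 0.773), BOP1 (-0.0048, adjusted p = 0.957), PA2G4 (-0.02, adjusted p = 0.812), GNL3 (0.11, adjusted p = 0.0648) and DKC1 (0.10, adjusted p = 0.0585). The lower ones were SHMT2, the mitochondrial enzyme of serine and glycine metabolism, HSPD1 (-0.13, adjusted p = 0.00420) and the telomerase subunit TERT (-0.33, adjusted p = 0.0283). SHMT2 had 16494, 16823 and 15475 normalized counts in shCtrl and 10596, 10666 and 10722 in shPCBP1. Its groups were far apart (log2 fold change -0.61, SE 0.041, adjusted p = 3.89e-46). The call of TERT was lost with length offsets (log2 fold change -0.05, adjusted p = 0.910), without shCtrl replicate 3 (-0.24, adjusted p = 0.191), and without shCtrl replicate 1 or shPCBP1 replicate 2 or 3 (adjusted p = 0.117, 0.124 and 0.0711).

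Of 6 tested genes that MYC is known to repress, 3 were higher and 0 lower by DESeq2, and at an unadjusted p under 0.05 and by edgeR the counts were the same. CDKN1A, the p21 inhibitor of cell cycle kinases, had 2874, 2905 and 3070 normalized counts in shCtrl and 4947, 4837 and 5219 in shPCBP1. The groups were separate (log2 fold change 0.76, SE 0.056, adjusted p = 8.05e-39). CDKN2C (0.34, adjusted p = 1.49e-09) and CDKN1B (0.23, adjusted p = 0.00222) were higher too, and GADD45A had a log2 fold change of 0.03 (adjusted p = 0.653). Among genes past the test, targets that MYC activates and genes that it represses were both more often higher than lower. Of all genes with a mean of at least 1000 normalized counts, 28.7% were higher. The activity of MYC was not tested.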

How the data were processed

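Poly-A RNA of 6 K562 libraries, 3 per group, was quantified per transcript by the authors with Salmon 1.10.2. The deposited estimated counts are not normalized, and the deposited TPM values are, per the authors' tool, abundances corrected for effective length that share 1 sum per library. The annotation release of their index is not given in the sources used here; 251612 of 252045 transcripts matched GENCODE 44 (GRCh38). Estimated counts were added up for each gene, then rounded, and genes with a sum of at least 10 entered DESeq2 1.42.0 (Wald test, two-sided, group as the only term, R 4.3.3). Transcripts were tested with limma 3.58.1 at a mean of at least 0.5 TPM (pseudocount 0.5). Isoform shares were compared by an exact permutation test. DESeq2 and limma were also run on simulated data whose changes had an absolute log2 fold change of 1, which none of the 10 genes reached. Recovery of smaller changes was not tested, and the permutation test was not simulated. Alternatives used edgeR 4.0.16, other scalings and filters, length offsets, a replicate block and each library left out.

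The members and lists were chosen with earlier results of these data known. Named from each list were up to 4 genes with the largest fold among those past the test with a mean of at least 100, from the genes within 500 kb of BCR or ABL1 likewise, and the 5 most like MYC. Other genes named beside them (PTPN1, INPPL1, GRB2, DOK1, FBL, BOP1, PA2G4, GNL3, DKC1, PTPN11, LYN, SRC, SHC1, GAB1, SOS1, EPOR, JAK1, JAK2, STAT3, SOCS3, MCL1, BCL2L1, EGR1, MAX, PVT1, RRP9, NCL, HSPD1, GADD45A and EXOSC2) were chosen after their values were seen. Of the genes picked by this rule, 1 is left out here. No source says that libraries of a group came from separate cultures, so p-values measure the spread between these samples. Libraries of one group differed beyond sampling noise (chi-square per degree of freedom 6.19 to 15.1).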

Additional observations from a re-analysis of the deposited data

How the results depend on the processing

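Each library was left out in turn and the other choices were changed one at a time. Over those fits with 1 library left out, log2 fold changes ranged from 0.196 to 0.227 for BCR, 0.188 to 0.227 for ABL1, 0.252 to 0.303 for CRKL, 0.325 to 0.387 for GAB2, 0.107 to 0.191 for SOCS2, 0.0934 to 0.152 for MYC, 0.0771 to 0.134 for CISH, -0.0786 to -0.0111 for STAT5A, -0.0342 to 0.101 for STAT5B and -0.263 to -0.0738 for PIM1, and -2.49 to -2.43 for PCBP1. Of the 10 genes, 5 to 7 were then higher and 0 to 1 lower. Genes past the adjusted p numbered 4175 to 5145 (5332 with all libraries), genes also past the fold 140 to 249 (235; 140 without shCtrl replicate 2 and 141 without shPCBP1 replicate 1), list genes higher 46 to 61 and lower 18 to 23, and transcripts of the 10 genes higher 0 to 1 and lower 0 to 0. Without shCtrl replicate 3, STAT5B reversed to -0.0342, STAT5B-201 to -0.0419 and SOCS2-207 (range -0.0195 to 0.0768) to -0.0195. BCR-201 (range -0.0114 to 0.0709) was -0.0114 without shCtrl replicate 2 and -0.00848 without shPCBP1 replicate 3, and STAT5A-209 was -0.00703 without shPCBP1 replicate 2. None of these transcripts passed the test in either form, and the cause was not tested.

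Tested against a log2 fold change of 1, 14 genes passed in all, 0 of the 10 genes did (their fold changes of 0.21, 0.21, 0.27, 0.36, 0.16 and 0.13 are unchanged by construction), and 0 list genes were higher and 0 lower. With length offsets 14 list genes were lower (22 without). Over the choices other than that threshold, with all libraries kept, 44 to 59 list genes were higher and 14 to 24 lower. No transcript of the 10 genes was higher without a filter on low TPM (0), while DESeq2 on transcript counts gave 9 higher and 1 lower. Otherwise edgeR, TMM factors, length offsets, the count filters, no independent filtering, the protein-coding table and the block each kept the direction and the call of all 10 genes.

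The replicate numbers are shared by the groups, but the deviations of same-numbered libraries correlated at 0.0940, -0.0203 and -0.105 over 14181 genes, so the numbers were not taken to pair the samples. With the replicate block, 148 genes passed test and fold, and 0 transcripts of the 10 genes were higher. SOCS6, RIN1 and TERT also lost their calls with the block (adjusted p = 0.0876, 0.0844 and 0.0778). The log2 fold change of MYC with the block was 0.124.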
